A study of Mus musculus with 16 samples.

Results

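The 7 genes described here are *Hes1*, *Hes5*, *Hes6*, *Hey1*, *Hey2*, *Heyl* and *Nrarp*, the main HES and HEY factors and a feedback inhibitor of Notch signaling. They were chosen by name from a list, and they are 7 of the 47729 genes with values in the files. All 7 passed the filter on low values, which kept 16994 genes. Transcripts were measured in cochleae of mice at postnatal day 4 in 16 libraries, 4 in each of 4 groups, and each library came from the pooled cochleae of several mice.

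Control mice carried *GLAST*-CreERT and *Rpl22*-HA, and DTR mice carried the same alleles together with *Lgr5*-DTR, each as a single copy. *GLAST*-CreERT places tamoxifen-inducible Cre under the control of *Slc1a3*, which is active in the greater epithelial ridge (GER) and in inner phalangeal cells. Cre makes the ribosomal protein RPL22 carry an HA tag, so that an antibody to HA pulls down ribosomes of the Cre+ cells with the mRNAs on them. *Lgr5*-DTR places the diphtheria toxin (DT) receptor in Lgr5+ supporting cells, which DT then kills. The study's methods state that both genotypes received DT and tamoxifen, while the sample labels describe the controls as untreated. Of each homogenate, 5% was kept as the input, which represents the whole dissected epithelium, and 95% went into the immunoprecipitation (IP). Before lysis the tissue had been freed of the spiral ganglion, the lateral wall and Reissner's membrane.

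Notch signaling passes between cells that touch each other. A ligand on one cell makes the Notch receptor of its neighbor release its intracellular part, which joins the DNA-binding protein RBPJ and turns on a small set of genes. Among them are the *Hes* and *Hey* genes, which encode basic helix-loop-helix repressors, and *Nrarp*, which encodes an ankyrin-repeat protein that limits the activity of the Notch intracellular domain. In the developing cochlea, HES1, HES5 and the HEY factors hold down *Atoh1*, the gene that starts hair cell differentiation, and so keep supporting cells from becoming hair cells. *Hes6* is the exception in this family, because its product opposes HES1 and its transcription usually accompanies differentiation.

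Depth ranged from 28089836 to 41966310 counted reads per library, and the median was lowest in DTR IP. The values are CPM, the reads of a gene scaled to the library total, as deposited by the authors. For the tests, CPM were quantile normalized, and LFC is the difference between group means of log2(CPM + 0.5), so the LFC of a low gene understates its change. Genes were called at an adjusted p under 0.05 in limma, with the Benjamini-Hochberg adjustment over all 16994 tested genes. A second rule followed the study's criteria for differentially expressed genes (DEGs), which add to that threshold an LFC beyond 1 in either direction and a gap between the groups, the lowest library of the higher group being over 1.5 times the highest of the lower. *Slc1a3*, the gene behind the Cre driver, had 236 ± 21.9 CPM (SD, n = 4) in control IP and 281 ± 14.3 in control input, and this difference was not called (LFC −0.20). Of the 9 listed markers of inner phalangeal and GER cells, 3 were higher, 3 were lower and 3 were not called in control IP against control input.

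The promoters of the members with an entry in the RefSeq table (build GRCm38.p6) are shown as a description. These members are *Hes5*, *Hey2*, *Hes6* and *Nrarp*. Each line holds the bases just before the start of transcription, up to 250 of them, read 5′ to 3′ on the strand of the gene. Capitals mark TGGGAA, the core of the motif bound by RBPJ, or its reverse complement.
Hes5: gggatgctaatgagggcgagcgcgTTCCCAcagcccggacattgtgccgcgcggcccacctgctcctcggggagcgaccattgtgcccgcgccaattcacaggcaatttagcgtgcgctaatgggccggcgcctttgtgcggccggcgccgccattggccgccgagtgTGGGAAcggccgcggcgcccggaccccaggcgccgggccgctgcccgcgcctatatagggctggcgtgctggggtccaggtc
Hey2: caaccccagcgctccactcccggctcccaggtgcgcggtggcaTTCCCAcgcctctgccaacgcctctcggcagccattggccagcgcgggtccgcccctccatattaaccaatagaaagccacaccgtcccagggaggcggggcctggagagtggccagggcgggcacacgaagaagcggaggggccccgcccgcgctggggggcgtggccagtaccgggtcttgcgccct
Hes6: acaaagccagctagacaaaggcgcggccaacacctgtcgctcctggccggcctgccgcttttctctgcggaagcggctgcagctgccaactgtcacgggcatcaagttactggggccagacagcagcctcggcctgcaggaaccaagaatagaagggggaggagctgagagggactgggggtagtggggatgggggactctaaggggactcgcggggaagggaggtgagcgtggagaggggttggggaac
Nrarp: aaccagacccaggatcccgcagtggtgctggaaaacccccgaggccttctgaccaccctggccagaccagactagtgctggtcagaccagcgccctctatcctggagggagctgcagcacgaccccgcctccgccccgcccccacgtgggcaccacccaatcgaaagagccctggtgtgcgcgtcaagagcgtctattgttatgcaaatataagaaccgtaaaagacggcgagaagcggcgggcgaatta
These windows are chr4:154960673-154960922 (+ strand) for *Hes5*, chr10:30842802-30843033 (− strand, 232 bases, ended at the GENCODE start) for *Hey2*, chr1:91414039-91414288 (− strand) for *Hes6* and chr2:25180508-25180757 (+ strand) for *Nrarp*. The *Hes5* window held TGGGAA 2 times, once on each strand, at 226 to 221 and at 82 to 77 bases before the start. In *Hey2* it stood once, on the reverse strand, at 207 to 202 bases before the RefSeq start, which lies 18 bases downstream of the GENCODE start. All 3 copies were part of the longer form GTGGGAA, which contains TGGGAA. On either strand, TGGGAA occurred in 21.6% and GTGGGAA in 5.42% of the 32851 windows of 250 bases in the table. The windows of *Hes6* and *Nrarp* did not hold these letters. The *Nrarp* window held CACGTG, a palindrome and a form of CACGNG, at 108 to 103 bases before the start, and CACNAG 2 times, while the printed *Hes6* window held CACGNG once. RefSeq lists another start of *Hes6*, 816 bases from the GENCODE start, and the 250 bases before it held CACNAG once and none of the other letters searched. CACGNG and CACNAG are letters that HES and HEY proteins can bind, and on either strand they occurred in 23.5% and 36.7% of all windows. A match of letters is a description of the window and was not tested as a binding site. Its part in the response to damage was not tested either. *Hes1*, *Hey1* and *Heyl* had no entry.

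In GENCODE M21 (GRCm38), *Hes1* lies at chr16:30064384-30067796, *Hes5* at chr4:154960923-154962371, *Hes6* at chr1:91411483-91414038, *Hey1* at chr3:8663359-8667256, *Hey2* at chr10:30832359-30842801, *Heyl* at chr4:123233556-123249875 and *Nrarp* at chr2:25180758-25183339. All are protein coding. Per the study's methods, reads were counted on coding regions, while the levels per kb given below divide by the full exonic length, so they set an order rather than an exact ratio between genes. *Hes5* is overlapped on the other strand by the noncoding Gm20421, which also covers part of the printed promoter, and *Nrarp* by the antisense Gm38287. The library kit does not mark strand, so reads of such partners cannot be told apart from those of the member. Gm20421 did not exceed 0.0591 CPM in any library, and Gm38287 was at 0 in all 16.

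In the control cochleae *Hey1* and *Hes6* were the most abundant of the 7 per length of exon. Per kb of exonic sequence, control IP held 54.9 ± 4.06 CPM (SD, n = 4) of *Hey1*, 44.4 ± 2.72 of *Hes6*, 28.7 ± 4.10 of *Hes1* and 16.4 ± 1.17 of *Heyl*. *Hey2*, *Hes5* and *Nrarp* followed at 10.1 ± 2.04, 8.01 ± 2.43 and 7.05 ± 1.27. Those last 3 levels overlapped between libraries with their neighbor in the order, while the first 4 did not. In control input the order was the same, at 36.2 ± 3.18 CPM per kb for *Hey1* and 2.23 ± 0.30 for *Nrarp*, with overlaps between *Hey1* and *Hes6*, between *Hes1* and *Heyl*, and between *Hey2* and *Hes5*.

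**Figure D1:**
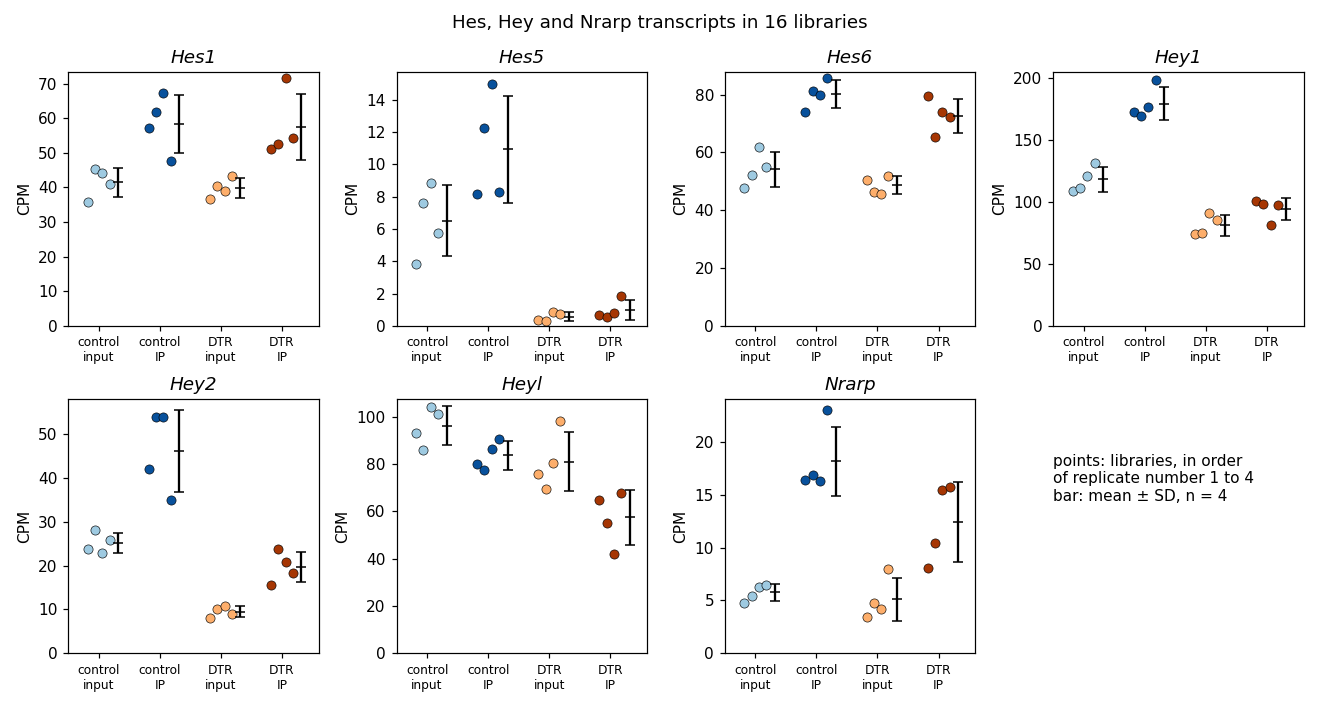
Deposited CPM (vertical axes, from 0, on a different scale in each panel) of the 7 genes in each library (points), with the mean ± SD of each group of 4 (bars). The DTR points of *Hes5*, *Hey1* and *Hey2* lie below the control points of the same sample type, and those of *Hes1* and *Hes6* overlap with them.

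DTR IP was compared with control IP to ask how these genes changed in GLAST-Cre+ cells after the loss of Lgr5+ cells. *Hes5*, *Hey2*, *Hey1* and *Heyl* fell, none of the 7 rose, and *Nrarp*, *Hes1* and *Hes6* did not pass the test. The 4 lower genes stand against 7.3% of all tested genes that were lower and 8.44% that were higher by the same rule. *Hes5* and *Hey2* also met the study's criteria, which 1.34% of tested genes met as lower and 1.12% as higher. The median LFC of the 7 genes was −0.61, beside −0.00 over all tested genes. In bulk samples, fewer cells of a type and less RNA per cell cannot be told apart.

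*Hes5*, a Notch-induced repressor of cochlear supporting cells, had 8.16, 12.3, 14.99 and 8.27 CPM in control IP replicates 1 to 4. In DTR IP it had 0.643, 0.570, 0.762 and 1.87 CPM, and no damaged library reached the lowest control value. Its mean was 8.81% of the control mean (LFC −3.13 ± 0.30 SE, limma adjusted p = 6.4e-07), and only 14 of the 16994 tested genes had a lower LFC. These DTR IP values rest on 16 to 57 reads, and the exact 95% Poisson interval of the lowest, 0.570 CPM, was 0.326 to 0.925 CPM, for counting error alone. Without a pseudocount, the fits to the recovered reads gave LFC −3.57 with edgeR and with DESeq2.

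*Hey2*, a HEY repressor of pillar and other supporting cells, had 42.0, 54.0, 54.0 and 35.0 CPM in control IP. In DTR IP it had 15.6, 23.7, 20.7 and 18.3 CPM, all below the lowest control library. The mean fell to 42.3% of control (LFC −1.26 ± 0.17 SE, limma adjusted p = 2.5e-05). The decrease was present in each of the 4 same-numbered pairs, as it was for *Hes5*.

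*Hey1*, the HEY gene with the highest level per length here, had 172, 169, 177 and 199 CPM in control IP and 100, 98.3, 81.5 and 97.4 in DTR IP. The groups did not overlap, and the mean fell to 52.6% of control (LFC −0.93 ± 0.11 SE, limma adjusted p = 5.7e-06). The 95% interval of the LFC ran from −1.15 to −0.70 and so held the fold that the study's criteria ask for.

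*Heyl*, which is also known from vascular smooth muscle, had 80.0, 77.6, 86.5 and 90.8 CPM in control IP against 64.7, 55.1, 42.0 and 68.0 in DTR IP. These values did not overlap either, and the mean was 68.6% of control (LFC −0.59 ± 0.14 SE, limma adjusted p = 0.0077). Markers of vascular mural cells summed to 125 to 175 CPM in control IP and to 170 to 242 in DTR IP, with 2 of 8 tested genes higher and none lower.

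*Nrarp*, the feedback inhibitor, had 16.4, 16.9, 16.3 and 23.1 CPM in control IP and 8.07, 10.4, 15.4 and 15.8 in DTR IP. The DTR IP libraries were all below the control IP libraries, yet the spread was wide, and the LFC of −0.61 ± 0.26 SE was not called (limma adjusted p = 0.13). With the replicate number as a block, which the pairing of the numbers allows, the same LFC had an adjusted p of 0.013, and 5 of the 7 genes were then called lower, beside 11.1% of all tested genes lower and 12.2% higher in that fit.

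*Hes1* and *Hes6* overlapped between the groups. *Hes1*, a broadly expressed HES repressor, had 57.1, 61.8, 67.2 and 47.5 CPM in control IP and 51.2, 52.6, 71.6 and 54.3 in DTR IP (LFC −0.06, 95% interval −0.33 to 0.20, limma adjusted p = 0.80). *Hes6* ranged from 74.0 to 85.9 CPM in control IP and from 65.2 to 79.5 in DTR IP (LFC −0.16, 95% interval −0.37 to 0.05, limma adjusted p = 0.33). These intervals leave room for small changes of *Hes1* in both directions, and for a decrease of *Hes6* to a depth of −0.37.

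Marker genes of several cell types moved with this comparison, including those of inner phalangeal and GER cells, where the Cre driver is active. Of 7 listed markers of Deiters and pillar cells, 6 were lower in DTR IP and the seventh, *Prox1*, had LFC −1.22 without a call, and their sum lay at 968 to 1119 CPM in control IP and at 330 to 448 in DTR IP. Macrophage markers were higher for 7 of 8 genes, at 20.8 to 29.6 CPM in control IP and 44.5 to 73.5 in DTR IP, and Schwann cell markers were lower for 2 of 8, at 862 to 1303 and 620 to 829 CPM. Mesenchyme markers were higher for 4 of 8, at 8355 to 9278 and 10812 to 14737 CPM, and none of the genes in these lists was at 0 in all libraries of a group. Endothelial markers were higher for 3 of 10 genes, at 143 to 181 and 211 to 242 CPM, and hair cell markers for 3 of 12 with 1 lower, at 456 to 494 and 453 to 503 CPM. Inner phalangeal and GER markers were lower for 4 of 9 with 1 higher, at 11200 to 12440 and 9562 to 11654 CPM, and neuron markers were lower for 1 of 8, at 249 to 554 and 126 to 465 CPM. Their part in the changes of the *Hes* and *Hey* genes was not tested.

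DTR input was compared with control input to ask the same of the whole dissected epithelium. *Hes5*, *Hey2* and *Hey1* fell and the other 4 did not pass the test, with 5.21% of tested genes lower and 7.17% higher. By the study's criteria *Hes5* and *Hey2* were lower, as were 1% of tested genes, and 1.34% were higher. The median LFC of the 7 genes was −0.28, beside −0.02 over all tested genes.

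*Hes5* had 3.81, 7.60, 8.87 and 5.77 CPM in control input and 0.355, 0.275, 0.868 and 0.700 in DTR input. The groups did not overlap, and the mean was 8.43% of control (LFC −2.76 ± 0.30 SE, limma adjusted p = 2.9e-06). The lowest of these values rests on 9 reads and has an exact 95% Poisson interval of 0.126 to 0.521 CPM. This LFC moved with the pseudocount, to −3.47 with 0.1 and −2.27 with 1 in place of 0.5, and edgeR and DESeq2 gave −3.55 and −3.58.

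*Hey2* had 23.8, 28.1, 22.9 and 25.7 CPM in control input and 8.01, 9.98, 10.8 and 8.89 in DTR input, again without overlap. Its mean was 37.5% of control (LFC −1.43 ± 0.17 SE, limma adjusted p = 5.3e-06). *Hey1* had 109, 111, 121 and 132 CPM in control input and 73.8, 74.7, 91.4 and 85.1 in DTR input, a mean of 68.8% of control (LFC −0.53 ± 0.11 SE, limma adjusted p = 0.0021). Both genes were lower in all 4 same-numbered pairs.

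*Heyl* in input overlapped between 86.1 to 104 CPM in control and 69.5 to 98.5 in DTR (LFC −0.25, 95% interval −0.55 to 0.05, limma adjusted p = 0.33). *Nrarp* had 4.79 to 6.44 CPM in control input and 3.43 to 8.01 in DTR input, where replicate 4 was the highest (LFC −0.28, 95% interval −0.83 to 0.26, limma adjusted p = 0.59). *Hes1* stood at 41.5 ± 4.20 and 39.8 ± 2.78 CPM (SD, n = 4), and *Hes6* at 54.1 ± 6.04 and 48.6 ± 3.07, in control and DTR input. Neither was called. Deiters and pillar cell markers were lower for all 7 genes in DTR input, at 1447 to 1734 CPM in control and 578 to 781 in DTR, and Schwann cell markers for 6 of 8, at 2664 to 4641 and 1356 to 2095 CPM. Macrophage markers were higher for 7 of 8, at 119 to 126 and 172 to 278 CPM. Their part in these results was not tested.

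**Figure D2:**
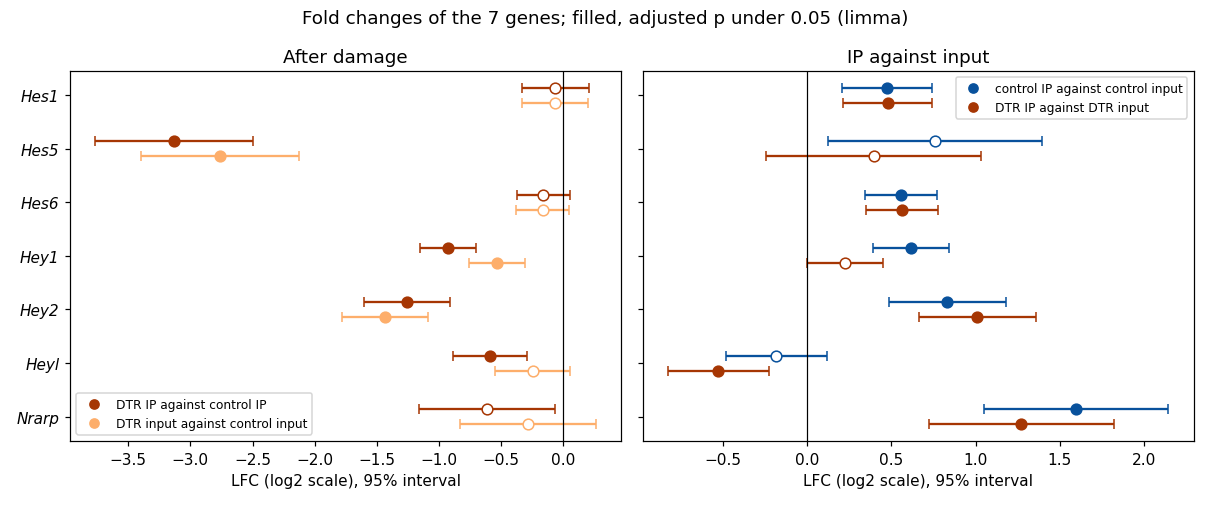
LFC on the log2 scale (horizontal axes, with 95% intervals from limma) of the 7 genes after damage (left, in IP and in input) and in IP against input (right, in control and in DTR). Filled points have an adjusted p under 0.05. *Hes5* lies at −3.13 and −2.76 after damage, and *Nrarp* has the highest values against input, 1.60 and 1.27.

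The interaction term asked whether the damage response differed between IP and input. None of the 7 genes was called in limma, against 0% of tested genes with a higher and 0.0118% with a lower response in IP. None was called with edgeR or DESeq2 either, and 1 member had an unadjusted p under 0.05 in limma. This was *Hey1*, whose LFC in IP minus that in input was −0.40 ± 0.15 SE (limma adjusted p = 0.77). For *Hey2* the difference was 0.18, with a 95% interval of −0.31 to 0.67, and for *Hes5* it was −0.36, with an interval of −1.26 to 0.54. The *Hes5* difference was near 0 in the fits to recovered reads, at −0.013 with edgeR and, with the opposite sign, 0.014 with DESeq2. A different response of the 2 sample types was thus not detectable for these genes, and the intervals do not show that they responded alike.

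IP was compared with input to ask which members were enriched on the ribosomes of GLAST-Cre+ cells. These comparisons use the same libraries as the damage comparisons above. The study set a higher mark for enrichment, a log2 ratio of IP to input above the LFC of every member here. Before clustering it also corrected for an effect of gene length in IP samples, which the main fit here did not. In control cochleae *Nrarp*, *Hey2*, *Hey1*, *Hes6* and *Hes1* were higher in IP, *Hes5* and *Heyl* were not called, and none was lower, with 19.3% of tested genes higher and 20.7% lower. *Nrarp* had 16.3 to 23.1 CPM in control IP and 4.79 to 6.44 in control input (LFC 1.60 ± 0.26 SE, limma adjusted p = 8.4e-05). For *Hey2* the LFC was 0.83, for *Hey1* 0.62, for *Hes6* 0.56 and for *Hes1* 0.48.

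*Hes5* was higher in the IP than in the input of all 4 control pools, by 1.68 times in the means, and its LFC of 0.76 had an adjusted p of 0.054 in limma. Blocking on the replicate number gave 0.014, and blocking on the pool gave 0.0034. Leaving out each of the 16 libraries in turn gave a limma adjusted p from 0.027 to 0.19. It passed without control IP replicate 1 (0.040), without control input replicate 3 (0.030) and without DTR IP replicate 4 (0.027). Over the settings with all libraries, in limma, edgeR or DESeq2, the adjusted p ran from 0.0034 to 0.14. *Heyl* was the only member with a mean below that of the input, at 77.6 to 90.8 CPM in control IP and 86.1 to 104 in control input (LFC −0.18, limma adjusted p = 0.34).

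In DTR cochleae *Nrarp* (LFC 1.27), *Hey2* (1.01), *Hes6* (0.56) and *Hes1* (0.48) were higher in IP, *Heyl* was lower, and *Hes5* and *Hey1* were not called, with 18.6% of tested genes higher and 20.5% lower. *Hey1* had 81.5 to 100 CPM in DTR IP and 73.8 to 91.4 in DTR input (LFC 0.22, limma adjusted p = 0.11). Without DTR IP replicate 3 its LFC was 0.29 (adjusted p = 0.0499), and without DTR input replicate 3 it was 0.30 (adjusted p = 0.043). Over all 16 fits with 1 library left out, the limma adjusted p of *Hey1* ran from 0.043 to 0.285. No setting with all libraries, in limma, edgeR or DESeq2, called it (lowest adjusted p = 0.066). *Heyl* had 42.0 to 68.0 CPM in DTR IP and 69.5 to 98.5 in DTR input, without overlap (LFC −0.53 ± 0.14 SE, limma adjusted p = 0.0069). In control IP, markers of hair cells were lower than in input for 10 of 12 genes, with 1 higher. So were those of Schwann cells for 7 of 8, of macrophages for 8 of 8, of endothelium for 8 of 10 and of mural cells for 6 of 8. Deiters and pillar cell markers were lower for 5 of 7 with 1 higher, and mesenchyme and neuron markers for 4 of 8 each. Mesenchyme markers still summed to 8355 to 9278 CPM in control IP, beside 10423 to 11062 in control input. Mural markers summed to 389 to 446 CPM in control input. Their part in the values of *Heyl* was not tested.

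The decreases differed in size between members, so the ratio of each pair of genes was compared between DTR and control libraries. There were 21 pairs in each sample type, tested on log2(CPM + 0.5) by a two-sided exact permutation test. The smallest p of this test with 4 against 4 libraries is 0.029. Adjustment over all 42 tests gave 0.048 for it, a value that depends on how many pairs reached the smallest p. The pairs share genes and are not independent, and those at the smallest p pass or fail together. The ratio changed for 12 pairs in IP and for 13 in input, each at this smallest p. These tests reuse the values behind the LFC above, which prompted them, and add no separate support. Pairs of other genes were not run, so the counts are not a result about the family. *Hes5* lost ground to all 6 other members in both sample types. Against *Hes1* it fell by 2.97 more on the log2 scale in IP and by 2.66 more in input, and against *Hey2* by 1.79 and 1.35.

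*Hey2* and *Hey1* both fell against *Hes1* in both sample types, and against *Hes6* in IP. In input the ratio of *Hes6* to *Hey2* rose as well, by 1.22, while that of *Hes6* to *Hey1* changed by 0.39 without passing the test (adjusted exact permutation p = 0.089). The ratio of *Hey1* to *Hey2* changed by 0.29 in IP (exact permutation p = 0.29) and by 0.84 in input (exact permutation p = 0.029), where *Hey2* fell more. The ratio of *Hes1* to *Hes6* moved by 0.12 in IP and 0.09 in input (exact permutation p = 0.57 and 0.37). *Heyl* and *Nrarp* moved by 0.01 against each other in IP and by −0.04 in input (exact permutation p = 0.97 and 0.83).

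**Figure D3:**
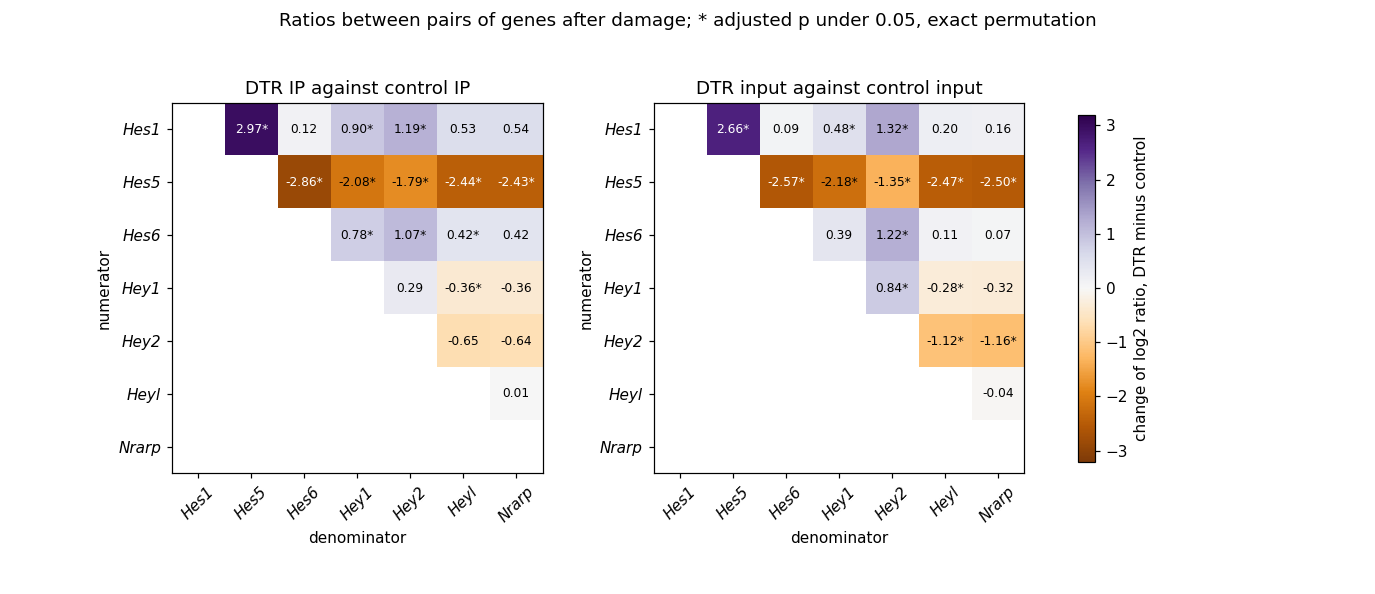
Change of the log2 ratio of the gene in the row to the gene in the column, DTR minus control, in IP (left) and input (right). Asterisks mark pairs with an adjusted p under 0.05, all of them at the smallest unadjusted p the exact permutation test allows. Each cell with *Hes5* is marked, at 2.97 and 2.66 below *Hes1* and between −2.86 and −1.35 in its own row.

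*Lgr5*, the gene of the ablated cells, gave a scale for these decreases. It stood at 31.4 to 40.0 CPM in control IP and 8.13 to 11.3 in DTR IP, so that 25.7% of the control mean was left, and 25.2% in input. DTR mice carry the knock-in at 1 *Lgr5* allele, and its part in the reads of *Lgr5* cannot be told apart from cell loss. In IP the ratio of *Hes5* to *Lgr5* fell by 1.09 on the log2 scale. That of each of the other 6 members to *Lgr5* rose, by 0.70 for *Hey2*, 0.99 for *Hey1* and up to 1.88 for *Hes1*. Each of these changes had an exact permutation p of 0.029, and 0.033 after adjustment over 14 tests. *Lgr5* itself had LFC −1.93 in IP, and only 1.42% of tested genes had an LFC at or below that of *Hey2*. Nearly any gene thus rises against *Lgr5*, and these rises are not particular to the members. In input the ratio of *Hes5* to *Lgr5* changed by −0.74 and that of *Hey2* by 0.61, and neither passed the adjusted exact permutation test (adjusted p = 0.062 and 0.086).

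The makeup of the family shifted with these changes. The summed level of the 7 genes was 170 ± 7.76 CPM per kb (SD, n = 4) in control IP and 118 ± 4.04 in DTR IP, and 118 ± 9.62 and 91.6 ± 6.84 in the inputs. In control IP *Hey1* made up 32.4% ± 2.32 of this sum, *Hes6* 26.2% ± 1.15 and *Hes5* 4.70% ± 1.27. In DTR IP *Hes6* made up 34.0% ± 2.04, *Hey1* 24.5% ± 2.63 and *Hes5* 0.592% ± 0.364. *Hes6* thus stood above *Hey1* in DTR IP, at 40.2 ± 3.26 against 28.9 ± 2.65 CPM per kb without overlap, and *Hey1* no longer separated from *Hes1*, at 28.2 ± 4.68. The lower end was *Nrarp* at 4.81 ± 1.47, *Hey2* at 4.26 ± 0.748 and *Hes5* at 0.706 ± 0.450 CPM per kb, where *Nrarp* and *Hey2* overlapped.

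**Figure D4:**
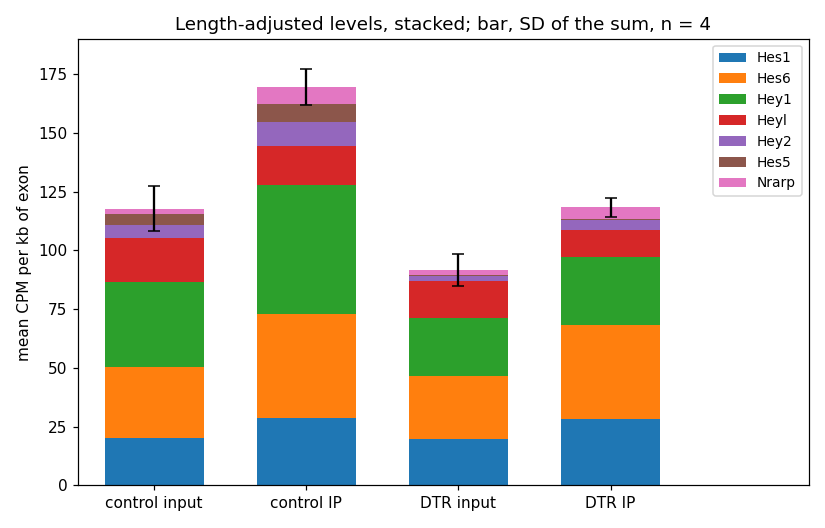
Mean CPM per kb of exon of the 7 genes (vertical axis, from 0), stacked for each group of 4 libraries, with the SD of the sum as a bar. The sum is 170 in control IP and 118 in DTR IP, and the *Hes5* segment is at 8.01 and 0.706.

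The rest of the Notch pathway did not move in one direction. Of 76 listed genes outside the family, 68 were tested. In DTR IP against control IP 7 were lower, 5 were higher and 56 were not called. Over all tested genes 7.3% were lower and 8.44% were higher in IP. The median LFC of the list was −0.02, beside −0.00 over all tested genes. In DTR input against control input 5 were lower, 5 were higher and 58 were not called, with medians of −0.00 and −0.02. Over all tested genes 5.21% were lower and 7.17% were higher in input. *Lfng*, a Fringe glycosyltransferase that alters which ligands Notch responds to, fell from 279 ± 26.9 to 16.8 ± 3.58 CPM (SD, n = 4) in IP (LFC −4.08) and from 74.5 ± 10.7 to 7.14 ± 1.11 in input (LFC −3.35). *Jag1*, a Notch ligand of supporting cells, fell from 307 ± 41.4 to 124 ± 18.2 CPM in IP (LFC −1.32) and was also lower in input (LFC −0.95). Both met the study's criteria in IP, as did *Lfng* in input.

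Upstream of the family, the receptors, other ligands and glycosyltransferases showed few further calls in IP. By the same rule 7.3% of all tested genes were lower there and 8.44% were higher. Of 10 tested receptors and ligands, *Jag1* and *Notch3* were lower and *Dll3*, at 1.82 ± 0.625 against 0.584 ± 0.304 CPM, was higher. The genes of this and the next paragraph, other than *Jag1* and *Cdkn1b*, are named after their values were seen. *Notch1* (LFC −0.33) and *Dll1* (−0.19) did not pass the test. Of 17 genes for cleavage and trafficking, *Neurl1a* and *Numb* were lower and *Itch* was higher. In the nuclear complex, the coactivators *Ep300* and *Crebbp* were higher among 12 genes (LFC 0.54 each), and *Rbpj* itself was at 62.7 ± 11.9 CPM in control IP and 62.8 ± 10.6 in DTR IP.

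Partners and targets of the family are listed as 6 tested Groucho/TLE corepressors, 3 tested HES relatives and 10 other Notch-responsive genes, and limma without a block called none of them in IP or in input. With the replicate block it called *Tle3* in IP (LFC 0.35, adjusted p = 0.011) and *Myc* in input (LFC 0.43, adjusted p = 0.016). On the recovered reads, edgeR and DESeq2 called *Hes7* in input (LFC 1.28 and 1.26), and DESeq2 called *Id1* in IP (LFC −0.31). At an unadjusted p, limma found 1 of these 19 genes under 0.05 in IP and 3 in input. Of genes listed because HES factors may repress them, directly or not, 5 were tested. Among these *Cdkn1b*, a cell cycle inhibitor, fell in IP from 79.6 ± 19.7 to 42.0 ± 9.34 CPM (LFC −0.96). In input *Cdkn1b* fell from 29.1 ± 5.18 to 12.6 ± 1.55 (LFC −1.21, which met the study's criteria). *Atoh1* fell as well, from 12.6 ± 4.33 to 6.70 ± 0.859 CPM in IP (LFC −0.87) and from 6.77 ± 1.54 to 3.12 ± 1.14 in input (LFC −1.09). *Cdkn1c*, another cell cycle inhibitor, rose in both (LFC 0.72 and 0.40), and the hair cell factors *Gfi1* and *Pou4f3* were not called.

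**Figure D5:**
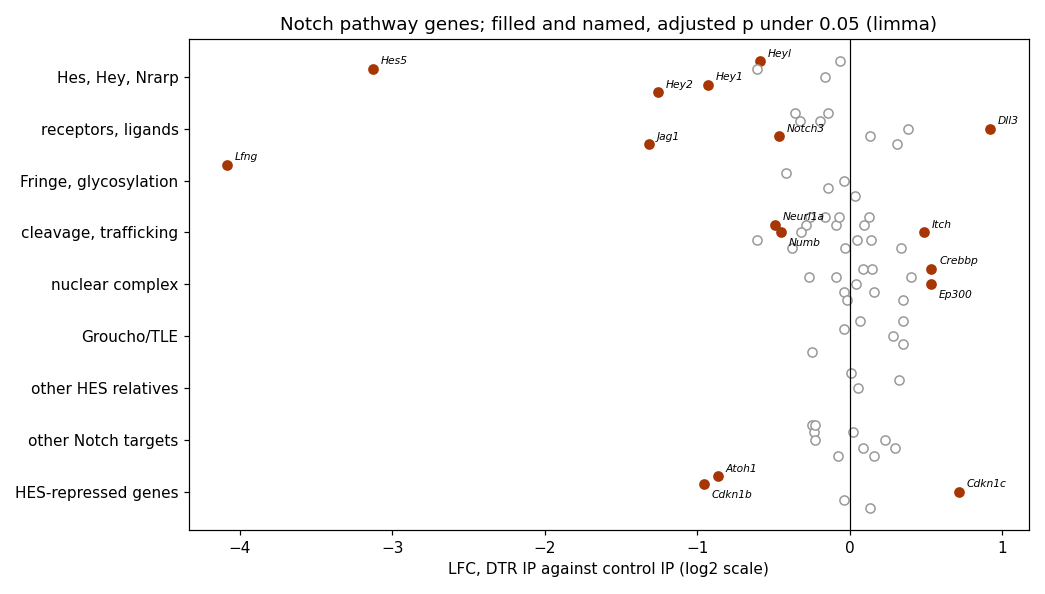
LFC of DTR IP against control IP (horizontal axis, log2 scale) for the 7 genes and for 68 tested Notch pathway genes in 8 groups. Filled and named points have an adjusted p under 0.05 in limma. *Lfng*, *Hes5*, *Jag1* and *Hey2* are farthest to the left.

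The genes whose profiles were most like those of each member were found by Pearson's r over the 16 libraries, on log2 normalized values, as a description. The libraries fall into 4 groups, so that such an r mostly follows the group means, and the r of deviations from the group means is given beside it. Most like *Hes5* was *Sox2*, a transcription factor of the prosensory domain and of supporting cells (r = 0.97, and 0.68 for the deviations), followed by *Plet1* and *Fgfrl1* (r = 0.97 and 0.96, deviations 0.58 and 0.73). *Hey1* was followed most closely by *Slc25a18*, by *Gata3*, a transcription factor needed in the otic lineage, and by *Gna14* (r = 0.98, 0.97 and 0.97, deviations 0.79, 0.71 and 0.82). For *Hey2* these were *Hs3st1*, *Ttyh1* and *B4galt5* (r = 0.96 each), with deviations at 0.65, 0.29 and 0.40.

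*Hes1* was most like *Myzap*, *Brms1* and *Zfp583* (r = 0.96, 0.95 and 0.95, deviations 0.87, 0.86 and 0.82), and *Hes6* most like *Ddit4*, *Tmed4* and *Six2* (r = 0.98, 0.97 and 0.96, deviations 0.87, 0.68 and 0.82). *Heyl* was most like *Slc2a1*, a glucose transporter gene, *Gpc1* and the pseudogene *Gstm2-ps1* (r = 0.96, 0.95 and 0.95, deviations 0.89, 0.88 and 0.84), whose reads may be shared with its parent gene. *Nrarp* was most like *Chac1*, *Rpusd3* and *Slc35c1* (r = 0.96 each, deviations 0.79, 0.82 and 0.85). Among the members themselves the highest r were 0.91 between *Hes6* and *Nrarp*, 0.90 between *Hes5* and *Hey1* and 0.89 between *Hey1* and *Hey2*, and the corresponding deviations had r of 0.42, 0.43 and −0.02.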

How the data were processed

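Per the study's methods, libraries were made with a SMART-Seq kit, reads were aligned to GRCm38 with HISAT2 2.0.4 and counted on coding regions with HTSeq. The submitters' processing notes name TopHat. The annotation release and the strand setting are not given in the sources used here. The files hold CPM as deposited by the authors, with 50316 genes listed, 2587 of them without a value in every library. Whole reads were recovered for 100% of values within 0.1 read, and 28089836 to 41966310 reads were counted per library. Intervals of counts cover counting error only.

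CPM were quantile normalized over all 47729 genes with values. The 16994 genes that reached 0.5 CPM throughout a group of 4 libraries were then kept. A single limma fit (limma 3.58.1 with its trend option, R 4.3.3) on log2(CPM + 0.5) held all 16 libraries without a block, and p-values were adjusted by Benjamini-Hochberg. The study tested counts with DESeq2, and limma was used here because the deposited unit is CPM. The study's criteria also used a floor of 1.08 CPM. The edgeR 4.0.16 and DESeq2 1.42.0 tests of the recovered reads were alternatives, with 2682 and 3114 genes called in DTR IP against control IP beside 2674 in limma. The 16 libraries came from 8 pools, each giving an input and an IP, and the main fit treated the libraries as separate samples. Its p-values thus rest on the spread between libraries within groups and leave out this pairing.

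IP and input of the same genotype and number came from the same pool. Deviations from the group means correlated between same-numbered libraries at 0.288 to 0.559 in every pair. The replicate numbers were therefore taken as pairing the samples, and a fit with the replicate block was an alternative. Means between other numbers were −0.135 to −0.119. Their negative sign follows from taking deviations from the group mean and adds no support. Other alternatives were the scaling, the pseudocount, the filter, the groups in the fit, gene length and each library left out.

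The members and gene lists were chosen with earlier results of these data known. Named genes were the 7 members, the 3 genes most like each of them, and Notch pathway genes that met the study's criteria. The limma script was tested on simulated data. Exact permutation tests used scipy 1.17.1.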

Additional observations from a re-analysis of the deposited data

Results flagged for a closer look

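Within each group of 4 libraries, the gap between the highest or lowest value and its nearest neighbor was compared with Dixon's critical share of the group's range at the 95% level, for 28 groups of the 7 genes. Chance passes about 1 in 20 groups, and 4 of 28 passed. *Hes5* in DTR IP replicate 4 was at 1.87 CPM, with the other 3 libraries at 0.570 to 0.762. *Hes1* in DTR IP replicate 3 was at 71.6 CPM, with the others at 51.2 to 54.3, and *Hey1* in the same library was at 81.5 CPM, with the others at 97.4 to 100.4. *Nrarp* in control IP replicate 4 was at 23.1 CPM, with the others at 16.3 to 16.9.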

How the results depend on the processing

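Over all settings run, 922 alternative LFC of the 7 genes kept their direction and their side of the threshold, 13 passed the threshold only under the alternative, and none lost it. The number of members called was 4 to 5 in DTR IP against control IP, 3 in the inputs, 5 to 6 in both comparisons of IP with input, and 0 for the interaction. With the replicate block, *Nrarp* was called in DTR IP against control IP (LFC −0.61, adjusted p = 0.013) and *Hes5* in control IP against control input (0.76, adjusted p = 0.014), and the block changed no other call of a member. The cause was not tested for these or the following changes.

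Signs turned for *Hes1*, *Hes6* and *Hes5*, in values that were not called. In the interaction, *Hes1* and *Hes6* (both 0.00) were at −0.00156 and −0.0244 with centring on the median, at −0.0279 and −0.0532 with edgeR and at −0.00465 and −0.0300 with DESeq2, where *Hes5* was at 0.0142 in place of −0.36. With 1 library left out, *Hes1* ranged from −0.18 to 0.011 in DTR IP against control IP and from −0.12 to 0.075 in the interaction, and *Hes6* from −0.070 to 0.065 in the interaction.

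Of the Notch pathway list, 12 genes were called in DTR IP against control IP, 16 with the replicate block and 20 with the block and a correction for gene length. Over all tested genes, DTR IP against control IP gave 2674 calls and 4072 with the block and that correction, the inputs 2104 and 3229, and the interaction 2, with 49 in DESeq2, 40 with the pool block, 22 with the block and length correction, 19 with the replicate block and 0 in edgeR. The pair ratios gave 12 and 13 changed pairs also with a pseudocount of 0.1 or 1 and with quantile-normalized values, settings added after the data were seen. Leaving out a library was not run for them, since 4 against 3 cannot pass the adjusted threshold. Depth limits *Hes5* after damage, with 9 to 57 reads per library.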
